A study of Homo sapiens with 28 samples.

Results

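MATK, RNASEH1-DT, SMYD2, PUS7 and MANEAL are 5 of the 11676 genes measured in 7 acute myeloid leukaemia (AML) cell lines treated with GSK3484862, an inhibitor of the DNA methyltransferase DNMT1. They were chosen by measured values, their signal being lower with the inhibitor in each of the lines. They are represented by 6 of the 27306 probe sets in the deposited table. MATK, RNASEH1-DT, SMYD2 and PUS7 were the genes that passed the test for a fall in all 7 lines, and MANEAL had the largest average fall of any gene. Because the change with the inhibitor chose them, it is given for these genes as a description and supports nothing. The differences between lines in vehicle-treated cells, the changes of related and neighbouring genes and the promoter sequences did not enter that rule, though the DMSO arrays are part of the change it used and the lists of related genes were drawn up with earlier results known.

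The established AML lines SHI1, NOMO1, GDM1, SKNO1, MOLM13, THP1 and SKM1 were each grown for 96 hours (day 4) with 1 µM GSK3484862 or with 0.1% DMSO, the vehicle. RNA from biological duplicates was hybridised to Affymetrix human U133 Plus arrays, which gave 14 groups of 2 arrays and 28 arrays in all. Every group is a single cell line, no genetic change is named for any of them, and p-values measure the spread between duplicates. Values are log2 signals of a probe set, a group of short probes to one transcript, and a difference of 1 is 2-fold. A gene is represented by its brightest probe set, and levels are compared between arrays for 1 probe set, never between genes.

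DNMT1 copies the methylation of CpG dinucleotides onto the new DNA strand after replication, and its inhibitors are best known for switching on genes silenced by methylation. No single pathway is known to join the genes described here. MATK is a tyrosine kinase related to CSK that phosphorylates the inhibitory tail of SRC family kinases. RNASEH1-DT is a long noncoding RNA transcribed away from RNASEH1, whose product removes RNA from RNA:DNA hybrids. SMYD2 is a lysine methyltransferase with targets such as RB1 and HSP90, PUS7 is a pseudouridine synthase acting on tRNA and mRNA, and MANEAL is the little-studied paralog of the Golgi endomannosidase MANEA.

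The duplicates correlated at 0.990 to 0.998 over all probe sets, and array medians lay between 8.33 and 8.51. Expressed as an SD per array, the spread between duplicates was 0.161 to 0.305 and was widest in SKM1 treated with the inhibitor. Of 10 myeloid markers, 8 were measured and lay above the floor of the table (2.13) on all arrays. SPI1, the myeloid transcription factor, ranged from 8.85 to 10.5, and PTPRC, which encodes CD45, from 11.2 to 13.5. KIT, the stem cell factor receptor, spanned 3.14 to 13.2. CD33 and CD34 were not analysed here. With the inhibitor 5 of the 8 rose on average, ITGAM by 1.03, MPO by 0.86, CSF1R by 0.52, PTPRC by 0.33 and SPI1 by 0.21, and KIT fell by 0.49; their part in the changes below was not tested. Of 20 markers of B cells, T cells, erythroid cells, epithelium and fibroblasts, 3 were measured. CD79A reached at most 7.64, PAX5 8.42 and COL1A1 10.1, and none of them passed the test for a change on average.

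Averaged over the 7 lines, MATK fell by 1.07 ± 0.06 (SE) on the log2 scale, which left 47.7% of its DMSO signal. RNASEH1-DT fell by 0.89 ± 0.05 to 53.8%, SMYD2 by 0.54 ± 0.03 to 68.7% and PUS7 by 0.48 ± 0.02 to 71.9%. MANEAL fell by 1.67 ± 0.14 to 31.5%. Among all average falls MANEAL ranked 1, MATK 4, RNASEH1-DT 12, SMYD2 138 and PUS7 233. The MANEAL values include 3 lines in which the treated arrays lay at the lowest values of the probe set, so its average may understate the fall. By limma with Benjamini-Hochberg adjustment, 28.6% of all genes passed the test for an average fall. In single lines 9.97% of tests over all genes were calls of a fall, and 0.0343% of genes had such a call in all 7 lines. Of the 35 tests of these 5 genes in a line 32 were calls of a fall, and in all 35 both treated arrays lay below both DMSO arrays. That order was seen in 31.1% of all genes and lines, and in all 7 lines for 2.57% of genes, a group of 300 that holds these 5. In arrays of whole cultures, fewer cells of a type and less RNA per cell cannot be told apart.

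**Figure D1:**
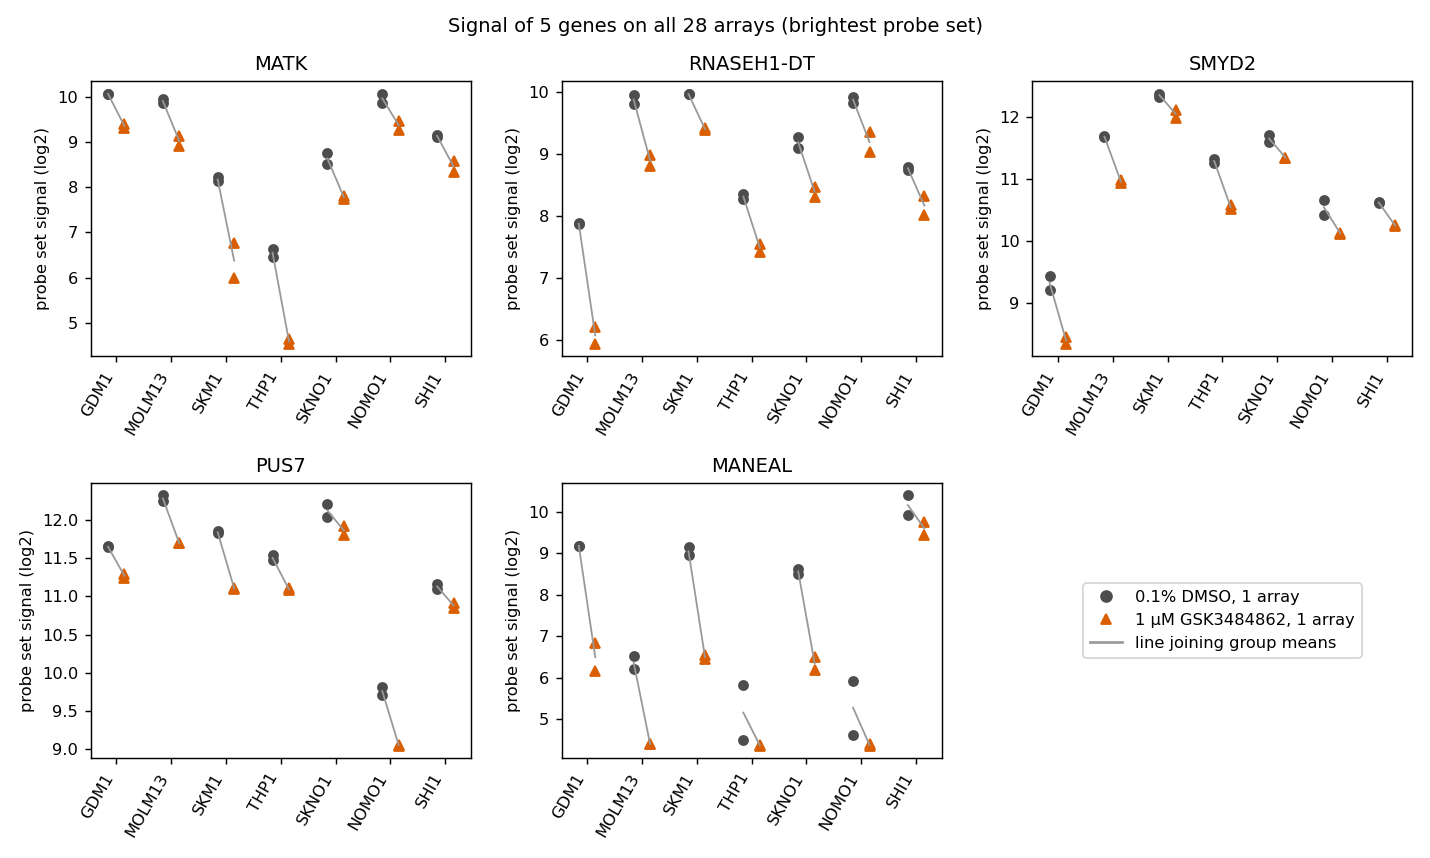
Log2 signal of the brightest probe set of each of the 5 genes on the 28 arrays, by line (horizontal axis), with circles for DMSO, triangles for GSK3484862 and a line joining the group means; the vertical range differs between panels. Both treated arrays lie below both DMSO arrays in all 7 lines of each panel.

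MATK had its highest DMSO signal in GDM1 and its lowest in THP1. In GDM1 the 2 DMSO arrays read 10.07 and 10.06 and the 2 treated arrays 9.30 and 9.40, and in NOMO1 they read 9.86 and 10.06 against 9.27 and 9.47. MOLM13 gave 9.94 and 9.87 with DMSO and 8.91 and 9.13 with the inhibitor, and SHI1 gave 9.16 and 9.11 against 8.34 and 8.57. In these lines and in SKNO1, where 8.75 and 8.51 stood against 7.81 and 7.74, between 54.2% and 66.3% of the DMSO signal was left. SKM1 and THP1 fell much further. SKM1 went from 8.21 and 8.13 to 6.76 and 6.00, and THP1 from 6.64 and 6.47 to 4.65 and 4.54, which left 28.9% and 25.7%. The log2 changes, each with an SE of 0.17, were -1.79 in SKM1 and -1.96 in THP1 against -0.59 (NOMO1) to -0.88 (MOLM13) in the others. The lines with the least MATK signal with DMSO thus had the deepest falls. The range of group means widened from 3.51 with DMSO to 4.77 with the inhibitor. The treated SKM1 duplicates lay 0.76 apart, and without 1 or the other the change in SKM1 was -1.41 or -2.17.

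MATK has 3 start sites in the RefSeq promoter table (GRCh38.p14), all on the minus strand of chromosome 19. The 250 bases before the most distal start, chr19:3801800-3802049, are shown because they lie outside every annotated gene and can be set beside the denser promoters of SMYD2 and PUS7. CpG dinucleotides, the sites that DNMT1 maintains, are in capitals.
MATK distal start: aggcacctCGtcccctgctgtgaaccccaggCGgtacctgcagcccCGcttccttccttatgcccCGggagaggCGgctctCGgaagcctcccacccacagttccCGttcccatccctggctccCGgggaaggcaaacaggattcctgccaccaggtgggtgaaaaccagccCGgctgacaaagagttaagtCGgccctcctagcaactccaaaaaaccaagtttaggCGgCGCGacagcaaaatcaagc
This stretch holds 13 CpG. Taken as windows of 300 bases, from 250 before to 50 after the start, the distal window held 16 CpG and both proximal windows 35 and 47. Over all 35116 windows of the table the median was 14, and 47.5%, 14.1% and 2.41% of windows had at least as many as these. The proximal windows lie inside the longer MATK gene model. No value here measures methylation.

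Most measured kinases and regulators around MATK did not pass the test for a fall. Of 16 listed genes of the SRC and CSK pathway 11 were measured, and on average over the lines 2 passed the test downwards (18.2%) and 6 upwards (54.5%). Among all genes 28.6% passed downwards and 23.2% upwards. The median change of the list was 0.08 against -0.02 over all genes. With the 7 lines as units 0 passed downwards and 1 upwards, against 529 and 296 of all 11676 genes. CSK, the kinase closest to MATK, rose by 0.08 ± 0.03 (adjusted p = 0.0284). The 2 CSK arrays of SKNO1 went from 10.06 and 9.92 to 10.35 and 10.20, and SKNO1 was its only line with a call. The CSK call was lost without GDM1 (0.08, adjusted p = 0.0533), SKNO1 (0.04, adjusted p = 0.228) or SHI1 (0.06, adjusted p = 0.136).

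FGR, a SRC family kinase of myeloid cells, rose by 1.86 ± 0.18 on average, with a change of 5.44 in MOLM13 and -0.03 in SKNO1, and did not pass with the lines as units (adjusted p = 0.117). SRC itself rose by 0.50 ± 0.08 from DMSO levels between 2.29 and 3.12, close to the floor. LYN, the other myeloid SRC family kinase measured, had a change of 0.25 ± 0.05 and PTPRC, the phosphatase that acts on the same tail, 0.33 ± 0.05; both passed the test upwards. The 2 that fell were KIT, to which MATK binds, at -0.49 ± 0.13, and the kinase FYN at -0.34 ± 0.10. YES1 (0.02 ± 0.20) and PAG1 (-0.11 ± 0.05), the membrane anchor of CSK, did not pass. PAG1 did pass downwards without SKM1 (-0.21), SKNO1 (-0.18) or SHI1 (-0.15).

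RNASEH1-DT varied least with DMSO among these genes, over a range of 2.09. In SKM1 it read 9.96 and 9.97 with DMSO and 9.39 and 9.42 with the inhibitor, and in MOLM13 9.94 and 9.81 against 8.81 and 8.97. NOMO1 gave 9.82 and 9.92 against 9.03 and 9.35, SKNO1 9.27 and 9.10 against 8.31 and 8.46, and SHI1 8.79 and 8.74 against 8.01 and 8.32. In these lines 50.5% to 67.7% of the signal was left. THP1, with 8.27 and 8.35 against 7.42 and 7.55, was similar at 56.5%. GDM1 stood apart: 7.88 and 7.86 with DMSO became 6.21 and 5.93, which left 28.7%. The log2 change was -1.80 in GDM1 and between -0.56 (SKM1) and -0.98 (MOLM13) in the others, each with an SE of 0.12. GDM1 was also the lowest line with DMSO, and the range of group means widened from 2.09 to 3.33. Without GDM1 the average fall was the smallest of those with 1 line left out, at -0.74.

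RNASEH1-DT and RNASEH1 start back to back on chromosome 2, and the start sites that RefSeq gives for them are 53 bases apart. The 52 bases between them, chr2:3558334-3558385 on the plus strand, are shown because both transcripts leave from this stretch, with CpG in capitals.
RNASEH1 to RNASEH1-DT: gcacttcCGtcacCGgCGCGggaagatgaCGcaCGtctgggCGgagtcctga
It holds 7 CpG. The 300-base window of RNASEH1-DT held 35 CpG and that of RNASEH1 33, and 14.1% and 17.2% of all windows had at least as many. RNASEH1 fell less and not everywhere. On average it changed by -0.19 ± 0.02 (adjusted p = 7e-06), against -0.89 for the noncoding RNA. In GDM1, where RNASEH1-DT lost most, RNASEH1 went from 11.77 and 11.58 to 11.38 and 11.42. It passed the test downwards in 4 lines, GDM1, MOLM13, SKM1 and NOMO1, and in SKNO1 it read 12.75 and 12.70 with DMSO and 12.82 and 12.80 with the inhibitor, a change of 0.09 ± 0.06. Its change differed between lines (moderated F-test, adjusted p = 0.00972), and its 3 probe sets had the same sign, from -0.19 to -0.34. With the 7 lines as units its adjusted p was 0.0909.

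In the list of RNase H, R-loop and mitochondrial DNA replication genes, 15 of 16 were measured. On average 12 passed downwards (80.0%, against 28.6% of all genes) and 1 upwards (6.67%, against 23.2%), and the median was -0.15. Downward calls numbered 2 with the 7 lines as units, where 529 of all 11676 genes passed downwards. They numbered 7 without _x_at and _s_at probe sets, where 2425 of the genes still measured did. The mitochondrial helicase TWNK fell by 0.56 ± 0.04 and the mitochondrial RNA polymerase POLRMT by 0.45 ± 0.06. TWNK passed in 5 lines, the most of this list. TFAM, which packages mitochondrial DNA, fell by 0.28 ± 0.04, and RNASEH2B, a subunit of the other RNase H, by 0.37 ± 0.05, with -1.0 in GDM1 and 0.03 in SHI1. MGME1, a mitochondrial exonuclease, was the member that rose, by 0.25 ± 0.04. The helicase AQR (-0.08 ± 0.03) and the mitochondrial DNA polymerase POLG (-0.04 ± 0.04) did not pass, though AQR did without NOMO1 (-0.09) or SHI1 (-0.10).

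SMYD2 was highest in SKM1 and lowest in GDM1, and these were also the lines of its smallest and largest fall. SKM1 read 12.32 and 12.37 with DMSO and 12.11 and 11.98 with the inhibitor, and GDM1 read 9.44 and 9.21 against 8.45 and 8.34. MOLM13 went from 11.69 and 11.67 to 10.93 and 10.98, and THP1 from 11.32 and 11.25 to 10.58 and 10.51. Those 2 lines and GDM1 kept 52.6% to 60.5% of the signal. SKNO1 gave 11.70 and 11.60 against 11.34 and 11.34, NOMO1 10.42 and 10.66 against 10.12 and 10.13, and SHI1 10.62 and 10.62 against 10.24 and 10.25. With SKM1, these kept 74.7% to 81.0%. The log2 changes, with an SE of 0.08, ran from -0.30 in SKM1 to -0.93 in GDM1. In SKNO1 the call was lost in 11 of 40 alternative settings.

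SMYD2 has a second, dimmer probe set, which did not repeat this. It read 6.69 and 6.83 with DMSO and 6.73 and 6.86 with the inhibitor in SKM1, a change of 0.03 ± 0.34. In GDM1 and NOMO1 it lay between 2.13 and 2.40 on all arrays, and 3 arrays were at the floor of the table. Its largest difference was in SKNO1, with 4.69 and 5.20 against 3.71 and 3.71. It passed in none of the lines, and its average change of -0.41 ± 0.13 passed over all probe sets, where 24.2% did (adjusted p = 0.0175). On 10 arrays it shared a value with another array, so its values carry little order there.

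SMYD2 had the promoter window densest in CpG among those examined for these genes. The 250 bases before its start on the plus strand of chromosome 1, chr1:214280909-214281158, overlap the lncRNA gene LOC124904509 and are shown with CpG in capitals.
SMYD2 upstream: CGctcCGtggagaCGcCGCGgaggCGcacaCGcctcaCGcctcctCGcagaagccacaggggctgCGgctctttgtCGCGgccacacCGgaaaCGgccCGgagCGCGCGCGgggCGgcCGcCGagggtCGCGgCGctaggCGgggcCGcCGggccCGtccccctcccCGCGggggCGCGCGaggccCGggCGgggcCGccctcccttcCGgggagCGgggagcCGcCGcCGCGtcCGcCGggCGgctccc
They hold 46 CpG, and the 300-base window held 52, a number reached by 0.780% of all windows. The window also matched the ETS core CCGGAAG, searched on both strands, which 10.3% of all windows hold. A match is a description of the letters.

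The other SMYD genes and lysine methyltransferases were mixed. Of 17 listed genes 15 were measured, 8 passed downwards (53.3%, against 28.6% of all genes) and 3 upwards (20.0%, near the 23.2% of all genes), with a median of -0.16. With the 7 lines as units 1 passed downwards and 0 upwards, against 529 and 296 of all 11676 genes. SMYD3, the closest relative, rose by 0.20 ± 0.05 on average (adjusted p = 0.0048) but not in every line. In MOLM13 it went from 10.64 and 10.64 to 11.37 and 11.07 and passed upwards, and in NOMO1 it went from 13.70 and 13.83 to 13.29 and 13.33 and passed downwards. Its change differed between lines (adjusted p = 0.00747). Without MOLM13 its average was 0.14 and no longer passed (adjusted p = 0.0631), and without NOMO1 it was 0.31. SMYD5 fell by 0.54 ± 0.09 and SMYD4 by 0.31 ± 0.08, while SETD6, another lysine methyltransferase, fell by 0.32 ± 0.05. KDM1A, the demethylase that takes histone methyl groups off, fell by 0.32 ± 0.04. KMT5C (-0.15 ± 0.08) and EHMT1 (0.04 ± 0.06) did not pass.

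PUS7 had the smallest average fall of the 5 genes. Its highest lines were MOLM13, with 12.32 and 12.24 against 11.70 and 11.70, and SKNO1, with 12.21 and 12.04 against 11.92 and 11.80. SKM1 went from 11.83 and 11.86 to 11.10 and 11.12, and NOMO1, the lowest line, from 9.71 and 9.82 to 9.06 and 9.05. SKM1 and NOMO1 had its deepest falls, with 60.1% and 61.2% of the signal left. In GDM1 it went from 11.64 and 11.66 to 11.24 and 11.30, in THP1 from 11.54 and 11.47 to 11.11 and 11.08, and in SHI1 from 11.10 and 11.16 to 10.92 and 10.85. The log2 changes, with an SE of 0.07, ran from -0.73 in SKM1 to -0.25 in SHI1. Of the calls that put the 4 genes inside the rule, PUS7 in SHI1 lay nearest to the threshold, with an adjusted p of 0.0492, and it was lost in 29 of 40 alternative settings.

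The 250 bases before the start of PUS7, on the minus strand at chr7:105522272-105522521, are shown with CpG in capitals because PUS7 was the gene among these with an E-box in its window.
PUS7 upstream: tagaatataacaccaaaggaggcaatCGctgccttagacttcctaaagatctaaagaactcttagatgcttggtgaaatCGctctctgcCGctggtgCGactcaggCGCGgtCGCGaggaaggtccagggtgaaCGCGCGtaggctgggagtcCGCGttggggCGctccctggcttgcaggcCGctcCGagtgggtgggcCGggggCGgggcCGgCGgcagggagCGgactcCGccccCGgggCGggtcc
They hold 24 CpG, and the 300-base window held 36, a number reached by 12.7% of windows. The E-box, CACGTG, reads the same on both strands and lies after the start, with its first base at +29 (chr7:105522228-105522253 gives it with its flanks, the motif in capitals).
PUS7 E-box: cgctgcgccgCACGTGtgcgagcccg
The same letters stand in 7.26% of all windows. The GC box GGGCGG, found in 45.0% of windows on either strand, was matched in the windows of SMYD2, PUS7, RNASEH1-DT and both proximal starts of MATK, and not in those of MANEAL and the distal MATK start.

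Of 17 listed pseudouridine synthases and proteins of the box H/ACA complexes, which guide pseudouridylation, 16 were measured. On average 13 passed downwards (81.2%, against 28.6% of all genes) and 0 upwards (against 23.2%), with a median of -0.23. With the 7 lines as units 6 passed downwards, against 529 of all 11676 genes. PUS7L, the paralog, fell by 0.32 ± 0.06 on average and had a negative change in every line, from -0.12 in THP1 to -0.59 in SKM1, the only line in which it passed. There it went from 8.03 and 7.67 to 7.22 and 7.30. Its second probe set had -0.12 ± 0.05 and did not pass (adjusted p = 0.094). GAR1, a core H/ACA protein, fell by 0.43 ± 0.03, RPUSD1 by 0.41 ± 0.07, RPUSD2 by 0.39 ± 0.04 and PUS1 by 0.29 ± 0.04. The H/ACA assembly factor SHQ1 passed in 6 lines, more than any other related gene, with 0.00 in SHI1. PUS10 (-0.12 ± 0.05) and PUSL1 (-0.01 ± 0.05) did not pass on average, and PUS10 passed without GDM1 (-0.16). DKC1 was not analysed here.

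MANEAL had the widest range, 5.00 with DMSO and 5.22 with the inhibitor, and the widest gaps between duplicates. In GDM1 it went from 9.18 and 9.17 to 6.83 and 6.16, in SKM1 from 9.14 and 8.95 to 6.55 and 6.45, and in SKNO1 from 8.49 and 8.63 to 6.18 and 6.51. These 3 lines kept 15.6%, 17.1% and 21.5% of the signal. In MOLM13 it went from 6.51 and 6.22 to 4.40 and 4.40. SHI1, the highest line, stayed high, with 10.39 and 9.91 against 9.44 and 9.75. THP1 gave 5.81 and 4.50 against 4.36 and 4.37, and NOMO1 4.63 and 5.93 against 4.36 and 4.40. The last 3 lines did not pass, with changes of -0.56 in SHI1 (adjusted p = 0.568), -0.79 in THP1 (0.180) and -0.90 in NOMO1 (0.135), each with an SE of 0.37. The DMSO duplicates of THP1 and NOMO1 lay up to 1.31 apart. Without the second DMSO array of THP1 its change was -1.44 (adjusted p = 0.026), and without the first of NOMO1 it was -1.55 (adjusted p = 0.0133), so 1 array decides each. All 6 treated arrays of MOLM13, THP1 and NOMO1 lay within 0.05 of the lowest value of the probe set. Detection calls were not used here, so whether these values lie above background is not known.

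The window of MANEAL lies inside the longer MANEAL gene model, which begins at base 37793847 of chromosome 1, before the window's start site at 37795488. No window at that outer end was examined. The window held 11 CpG, and 54.7% of windows held at least as many. It matched the ETS core and neither the E-box nor the GC box. Most glycan-trimming genes related to MANEAL did not pass the test for a fall. Of 20 listed and measured genes 2 passed downwards (10.0%, against 28.6% of all genes) and 8 upwards (40.0%, against 23.2%), with a median of 0.03. With the 7 lines as units 0 passed downwards and 2 upwards, against 529 and 296 of all 11676 genes. MANEA, the paralog, had an average change of 0.07 ± 0.05 (adjusted p = 0.281), with values from -0.33 in MOLM13 to 0.36 in SKM1. In GDM1 it went from 9.72 and 9.77 to 9.65 and 9.45, where MANEAL fell by 2.68. One of the 3 MANEA probe sets passed downwards at -0.38 ± 0.12 (adjusted p = 0.0209). Without MOLM13 its average was 0.13 and passed upwards (adjusted p = 0.0484). The Golgi mannosidase MAN2A2 rose by 0.50 ± 0.05, and EDEM2 and EDEM1, which direct misfolded glycoproteins to degradation, rose by 0.36 ± 0.05 and 0.32 ± 0.03. MANBA, the lysosomal beta-mannosidase, rose by 0.31 ± 0.04, and by 0.18 without MOLM13. The glucosidase MOGS (0.03 ± 0.06) and PRKCSH (-0.02 ± 0.04), the regulatory subunit of the next glucosidase, did not pass.

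**Figure D2:**
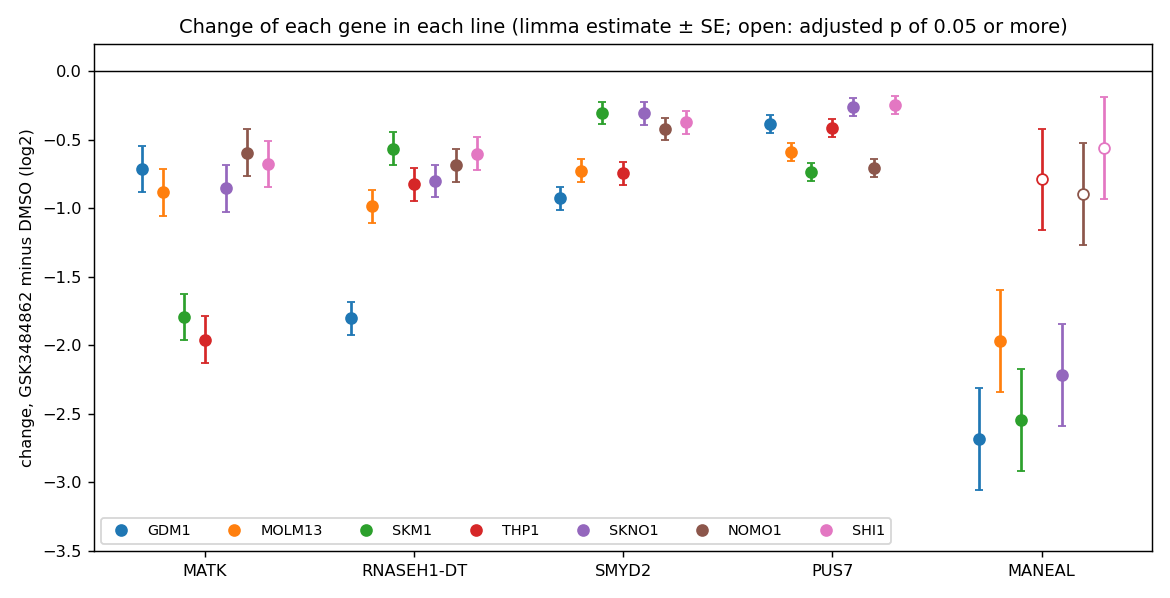
Change of each gene in each line, as inhibitor minus DMSO on the log2 scale (points, limma estimate; bars, SE); open points have an adjusted p of 0.05 or more. The deepest fall lies in THP1 for MATK, in GDM1 for RNASEH1-DT, SMYD2 and MANEAL and in SKM1 for PUS7, and the open points are MANEAL in THP1, NOMO1 and SHI1.

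No line was deepest or shallowest for all 5 genes. GDM1 had the largest fall of RNASEH1-DT, SMYD2 and MANEAL but a modest one of MATK. SKM1 was among the deepest for MATK, PUS7 and MANEAL and the shallowest for RNASEH1-DT and SMYD2. SHI1, the line with the fewest calls (0.899% of all genes down, against 20.5% in GDM1), was the shallowest for PUS7 and MANEAL. The share of all genes called down was 15.4% in MOLM13, 14% in SKM1, 8.3% in THP1, 7.55% in NOMO1 and 3.12% in SKNO1. Leaving out 1 line at a time, the average change stayed between -0.92 and -1.15 for MATK, -0.74 and -0.95 for RNASEH1-DT, -0.48 and -0.58 for SMYD2, -0.43 and -0.51 for PUS7 and -1.50 and -1.85 for MANEAL.

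Just inside the threshold for all 7 lines were the 4 genes named, and just outside were 35 genes called down in 6 lines. The largest average falls among those were of POLR3G, a subunit of RNA polymerase III, at -0.83 ± 0.06, NPRL3 at -0.69 ± 0.05, CENPV at -0.66 ± 0.05, PYCR3 at -0.62 ± 0.04 and NABP2 at -0.61 ± 0.05. POLR3G missed in SKNO1, where its change was -0.11. The other 4 missed in SHI1, with changes from -0.33 for NPRL3 to -0.03 for PYCR3. The number of genes with calls in all 7 lines depended on single arrays and ranged from 0 to 4 with 1 array left out. It was 0 without either DMSO array or without the first treated array of SHI1. It was 1 without the second treated array of SHI1, the first DMSO array of SKNO1 or either treated array of NOMO1, and 2 without either DMSO array of GDM1, the second treated array of SKM1 or SKNO1, or the second DMSO array of NOMO1. Without any other single array it was 3 or 4.

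With DMSO the 7 lines differed in the level of all 5 genes (moderated F-test, adjusted p of 8.5e-10 or less), but so did 97% of all genes. Of the 21 pairs of lines, 18 differed for MATK, 18 for RNASEH1-DT, 19 for SMYD2, 20 for PUS7 and 17 for MANEAL, against 66.9% of pairs over all genes. In order of DMSO level MATK read 10.1 in GDM1, 9.96 in NOMO1 and 9.90 in MOLM13, which did not differ beyond their spread, then 9.13 in SHI1, 8.63 in SKNO1, 8.17 in SKM1 and 6.55 in THP1, each below the one before. RNASEH1-DT read 9.96 in SKM1, 9.88 in MOLM13 and 9.87 in NOMO1 without a difference, then 9.19 in SKNO1, 8.77 in SHI1, 8.31 in THP1 and 7.87 in GDM1, each lower. The top of both orders is thus a plateau and the rest a staircase. SMYD2 read 12.3 in SKM1, then 11.7 in MOLM13 and 11.6 in SKNO1 without a difference between them, 11.3 in THP1, 10.6 in SHI1 and 10.5 in NOMO1 again without a difference, and 9.32 in GDM1. PUS7 read 12.3 in MOLM13, 12.1 in SKNO1, 11.8 in SKM1, 11.7 in GDM1, 11.5 in THP1, 11.1 in SHI1 and 9.76 in NOMO1, and in that order GDM1 and THP1 were the neighbours that did not differ (adjusted p = 0.0603). MANEAL read 10.2 in SHI1, 9.17 in GDM1, 9.04 in SKM1, 8.56 in SKNO1, 6.36 in MOLM13, 5.28 in NOMO1 and 5.16 in THP1. GDM1, SKM1 and SKNO1 formed 1 step without a difference between neighbours, and NOMO1 and THP1 another. With the inhibitor the order of the lines stayed close to this, with neighbours changing places.

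Over the 14 group means RNASEH1-DT and SMYD2 had the most similar pattern of any pair, with r = 0.767 (0.671 over the 7 DMSO means). MATK and SMYD2 were the least similar at -0.340, and the other 8 pairs lay between -0.11 and 0.36. These correlations are descriptions over points that share lines and arrays. Among all genes, the pattern most like MATK was that of ZNF22 (r = 0.955), then MRPL57 (0.953) and MRPL48 (0.948), both mitochondrial ribosomal proteins. RNASEH1-DT was most like GINS2 (0.948), part of the replicative helicase, DHODH (0.933), an enzyme of pyrimidine synthesis, and EXOSC2 (0.928), an RNA exosome subunit. SMYD2 was most like POLR2I (0.958), CBX1 (0.950) and PALS2 (0.937). PUS7 was most like SHPRH (0.971), ZNF800 (0.959) and DNAJC2 (0.953), and MANEAL like SP4 (0.928), KLHL11 (0.898) and GTPBP8 (0.892).

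The nearest measured genes on each side of these 5 had smaller average changes than the gene they flank. The 5 were chosen for their falls, so that difference was largely built into the choice. Of the 10 nearest measured neighbours 4 passed downwards on average and 0 upwards, against 28.6% and 23.2% of all genes. Around MATK, MRPL54, 10.4 kb away, had -0.05 ± 0.04 and the elongation factor EEF2, 174 kb away, -0.0022 ± 0.027. Around SMYD2, RPS6KC1, 418 kb away, had 0.04 ± 0.04 and PTPN14, 11.6 kb away, -0.13 ± 0.10. RPS7, on the far side of RNASEH1-DT at 13.5 kb, had -0.04 ± 0.02. None of these passed. SRPK2, 57.1 kb from PUS7, fell by 0.12 ± 0.03, while RINT1, 9.93 kb away on the other side, had -0.17 ± 0.10 and did not pass. Both measured neighbours of MANEAL passed, CDCA8, 84.1 kb away, at -0.12 ± 0.03 and YRDC, 1.81 kb away, at -0.29 ± 0.04. YRDC, a tRNA-modifying enzyme, had calls in 4 lines.

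**Figure D3:**
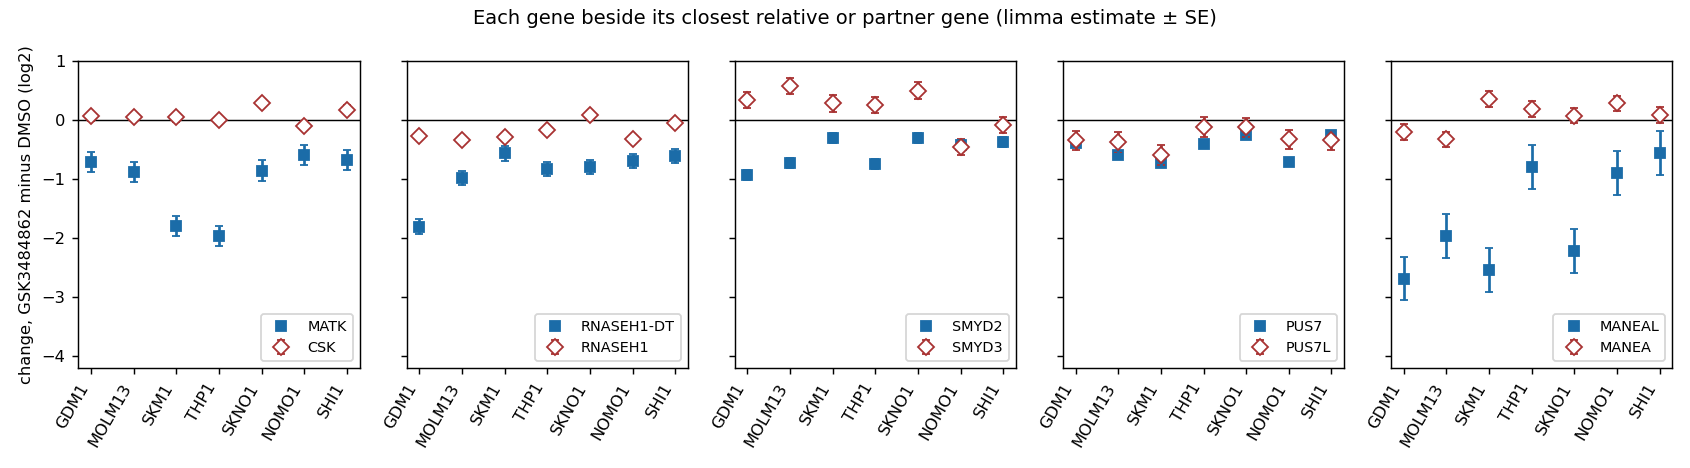
Change in each line (inhibitor minus DMSO, log2; limma estimate ± SE) of each gene (filled) and its closest relative or, for RNASEH1-DT, its partner gene (open). CSK, SMYD3 and MANEA lie around or above 0 in most lines, RNASEH1 lies between -0.33 and 0.09, and PUS7L is negative in all 7 lines.

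Across the 5 lists 77 of 86 genes were measured, and 37 passed downwards (48.1%, against 28.6% of all genes) and 18 upwards (23.4%, near the 23.2% of all genes), with a median of -0.09. None passed downwards in all 7 lines. That was fixed beforehand, because only MATK, RNASEH1-DT, SMYD2 and PUS7 did so and the lists leave them out. The change differed between lines for 29 of the 77 (37.7%), as it did for 37.5% of all genes. These counts use the spread between duplicates. With the 7 lines as units, 529 of all genes passed downwards and 296 upwards, and of the related genes 9 and 3. TWNK, POLRMT, KDM1A, PUS7L, GAR1, RPUSD1, RPUSD2, PUS1, EDEM1 and EDEM2 were among those that still passed, with adjusted p between 0.0404 and 0.0492. Calls that were lost were those of CSK, FGR (adjusted p = 0.117), SRC (0.057), KIT (0.0608), FYN (0.0506), RNASEH1, RNASEH2B (0.117), TFAM (0.0557), SMYD3 (0.283), SMYD4 (0.0604), SMYD5 (0.0508), SETD6 (0.0777), MAN2A2 (0.0541) and MANBA (0.172).

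**Figure D4:**
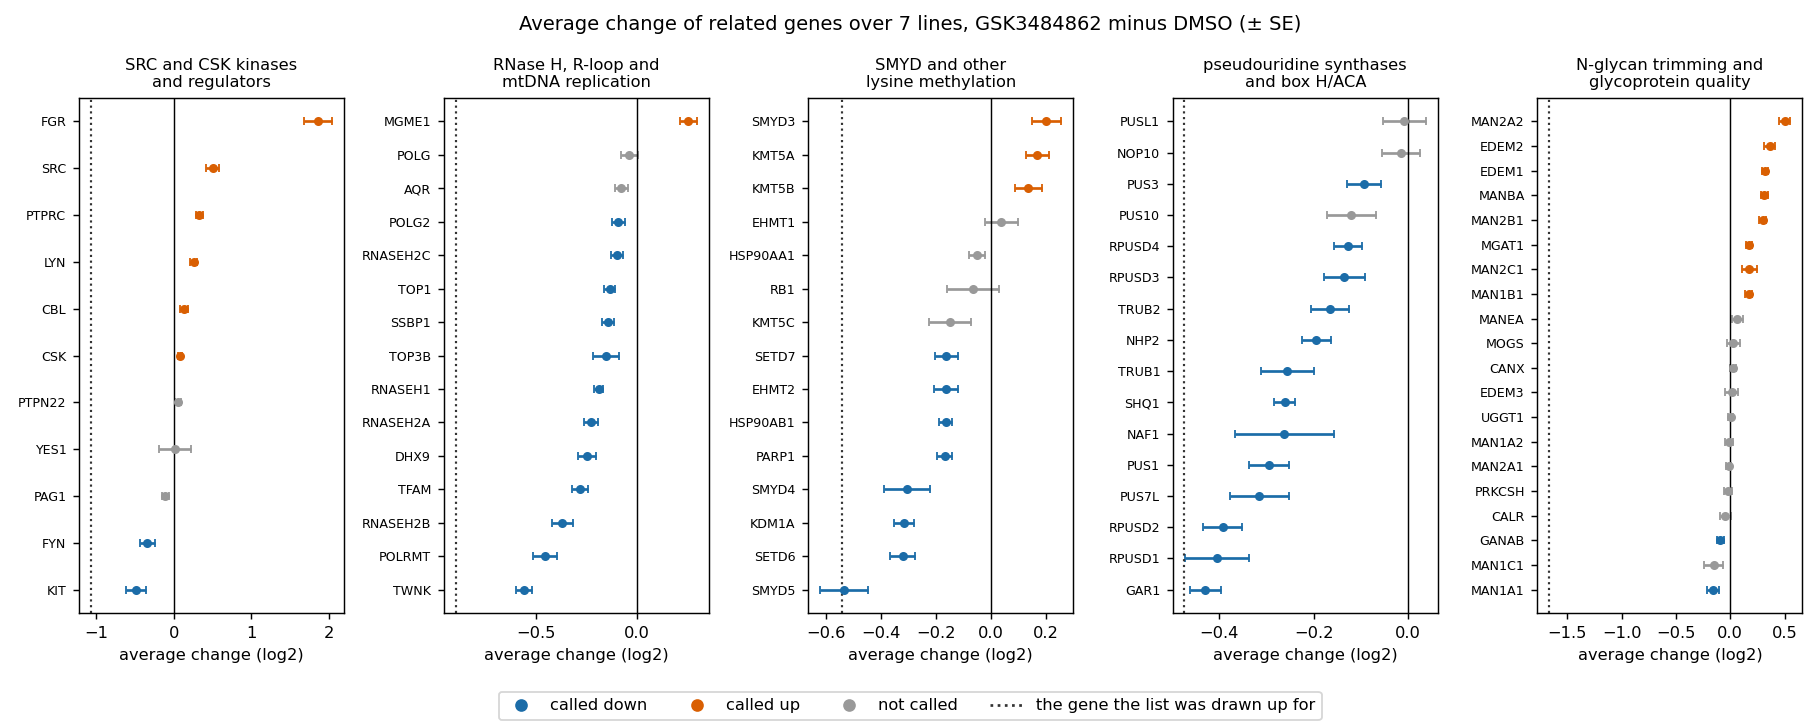
Average change over the 7 lines (horizontal axis, inhibitor minus DMSO, log2; limma estimate ± SE) of the measured genes of each list, with the dotted line at the gene the list was drawn up for; horizontal ranges differ between panels. Most pseudouridylation and RNase H or mitochondrial DNA genes lie left of 0, while FGR at 1.86 and MAN2A2 at 0.50 lead on the right.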

How the data were processed

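The authors deposited 1 table of log2 probe set signals for 28 arrays, with background correction, summarisation, normalization and filtering not given in the sources used here. Limma is named in the submitters' processing notes, with no version or role. The values ran from a floor of 2.13, shared by 288 to 691 probe sets per array, to 16.8 and were used as deposited. No column was left out. The number of arrays limits the precision.

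Of 27306 probe sets 22580 had 1 gene symbol, 1098 several and 3628 none; only the first were used, and 22567 matched the RefSeq gene table by identifier. The brightest probe set by mean over the arrays stood for a gene, which left 11676 genes. Limma 3.58.1 in R 4.3.3 (lmFit, eBayes) fitted 14 groups in 1 model with 14 residual and 2.28 prior degrees of freedom. Contrasts were the change in each line, their mean, F-tests of DMSO levels and of changes between lines, and 21 pairs of lines. P-values were two-sided, Benjamini-Hochberg adjusted over all genes (pairs over all genes and pairs), and called under 0.05. On simulated data with 11676 genes the average contrast recovered 47 of 50 genes at -0.5 and 50 of 50 at -1, with 8 false calls. Single lines recovered a mean of 22.4 and 44.6. The simulated shift was equal in all 7 lines and few genes had one. In the data 51.7% of genes passed on average and the change differed between lines for 37.5%, so these rates need not hold there.

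The 5 genes and the lists of related genes were chosen with earlier results of these data known. Named related genes are the closest relative, up to 4 others with the largest average change that passed and up to 2 that did not. LYN, PTPRC, MGME1 and SHQ1 were named after their values were seen. Likeness is Pearson's r over 14 group means, and neighbours are the nearest measured genes in RefSeq. Promoter windows, sequences and coordinates come from RefSeq (GRCh38.p14), and all 5 genes had a window. Each CpG was counted once, on the strand given, and motifs were searched on both strands. The array files carry no coordinates. Alternatives were other normalizations, probe set choices, filters and eBayes options, array weights, a replicate block, each line fitted alone, lines as units, an adjusted p under 0.01, and each line or array left out. Scan or hybridisation batches were not used here.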

Additional observations from a re-analysis of the deposited data

Results flagged for a closer look

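Of the 35 related genes named, 14 had a change that differed between the lines by the moderated F-test (limma, Benjamini-Hochberg over all genes), where 37.5% of all genes did. Around MATK these were FGR (adjusted p = 3.11e-05, from -0.03 in SKNO1 to 5.44 in MOLM13) and PAG1 (0.000523, from -0.72 in GDM1 to 0.46 in SKM1). Around RNASEH1-DT, RNASEH1 had 0.00972 (from -0.33 in MOLM13 to 0.09 in SKNO1) and TWNK 0.0189 (from -0.84 in NOMO1 to -0.23 in SKNO1). RNASEH2B had 0.00242, from -1.0 in GDM1 to 0.03 in SHI1, and TFAM 0.0404, from -0.55 in GDM1 to -0.05 in NOMO1.

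Among the genes around SMYD2, SMYD3 had 0.00747 (from -0.46 in NOMO1 to 0.58 in MOLM13) and SETD6 0.0122 (from -0.63 in SKM1 to 0.11 in GDM1). GAR1, listed with PUS7, had 0.00119, from -0.78 in GDM1 to -0.11 in SKNO1, and RPUSD2 0.0492, from -0.61 in MOLM13 to -0.12 in SHI1. In the list of MANEAL the highest change lay in MOLM13 for MAN2A2 (0.00375, lowest 0.13 in THP1, highest 1.28), EDEM1 (0.0277, from 0.12 in SKNO1 to 0.54) and MANBA (2.89e-05, from -0.14 in SKNO1 to 1.1). For MANEA (0.0495) MOLM13 held the lowest change, -0.33, and SKM1 the highest, 0.36.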

How the results depend on the processing

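The average changes of the 5 genes were negative and passed in all 233 values over 47 settings, and with lines as units each had an adjusted p of 0.0404. Of 1386 values for the 5 genes in single lines over 40 settings, 1282 kept direction and call, 101 lost the call, 2 gained it and 1 turned direction. That was SMYD2 in SKM1 on its dimmer probe set, at 0.032 without _x_at and _s_at probe sets and at 0.032 in the fit of all probe sets.

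Leaving out _x_at and _s_at probe sets removes MATK and MANEAL, and also related genes with no other probe set, such as KIT and SMYD3. The 3 genes left passed on average and in DMSO level, and 14 of their tests in single lines passed. In all 7 lines 1 gene passed, also 1 of the 5. MATK relatives down were 0, RNASEH1-DT relatives down 7 and SMYD2 relatives up 0. Such counts rest on fewer genes or on other probe sets, so a missing measurement can lower them. Among all genes 2425 passed downwards and 1975 upwards in this setting. Genes down in all 7 lines, and how many of the 5 were among them, became 2 and 2 with quantile normalization, 1 and 1 with median centring and at an adjusted p under 0.01, and 0 and 0 with each line on its own 4 arrays, where 11 tests in single lines passed. Genes down in all 7 lines numbered 4 with the mean of probe sets and 6 with array weights, but only 2 of the 5 were among them in each. Which genes fell in all 7 lines thus changed with the setting.

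With lines as units 529 of all genes fell and 296 rose. Related genes gave 9 down and 3 up: 0 and 1 for MATK, 2 and 0 for RNASEH1-DT, 1 and 0 for SMYD2, 6 and 0 for PUS7 and 0 and 2 for MANEAL. MANEAL relatives down became 1 with quantile normalization, array weights or without SKNO1 or NOMO1, and 0 at an adjusted p under 0.01 or without SKM1 or THP1. SMYD2 relatives up became 1 without MOLM13. Related genes whose change differed between lines became 16 at an adjusted p under 0.01, 15 without GDM1 and 17 without SKNO1.

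With 1 array left out, genes down in all 7 lines ranged from 0 to 4, as did the number of the 5 among them, and tests in single lines from 27 to 33. All 5 passed on average and in DMSO level each time (5 to 5). All genes down ranged from 3130 to 3421 and up from 2548 to 2771. Related genes ranged from 34 to 38 down and 14 to 18 up, and those differing between lines from 22 to 31. Down and up by list were 2 to 3 and 4 to 6 for MATK, 11 to 13 and 1 to 1 for RNASEH1-DT, 8 to 9 and 2 to 3 for SMYD2, 11 to 13 and 0 to 0 for PUS7 and 1 to 3 and 7 to 8 for MANEAL.

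Deviations of same-numbered arrays correlated at 0.372 in SKM1, 0.391 in SKNO1 and 0.309 in NOMO1 and at -0.10 to 0.09 in the other lines, so a pairing was not established in every line. With the replicate number as a block 31 of the tests in single lines passed and 3 genes fell in all 7 lines, both by number and within line, and PUS7 in SHI1 had an adjusted p of 0.0533 and 0.0704. The cause of these shifts was not tested. Dim probe sets, with values near the floor, limit what can be ordered.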
